A study of Mus musculus with 6 samples.

Results

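The Hippo kinase core genes are 10 genes that encode the kinases, adaptors and upstream regulators at the head of the Hippo pathway. They were taken by symbol (Taok1, Wwc1, Nf2, Stk3, Stk4, Sav1, Lats1, Lats2, Mob1a and Mob1b), and their members here are all CUT&Tag regions that the tables assign to them as the nearest gene. There were 144 such regions among 456310 in 4 tables, and each of the 10 genes had a region in at least 1 table. CUT&Tag uses an antibody to guide a transposase, so that reads collect on DNA near the antibody's target. It measures association with chromatin, and it does not measure transcripts or protein.

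In the Hippo pathway, the upstream kinase TAOK1 and the scaffolds encoded by Nf2 (merlin) and Wwc1 (KIBRA) help to switch on the MST kinases, which are encoded by Stk3 (MST2) and Stk4 (MST1). Together with the adaptor encoded by Sav1, the MST kinases phosphorylate LATS1 and LATS2, which work with the MOB1 co-activators (Mob1a, Mob1b). The LATS kinases then phosphorylate YAP and TAZ and keep them out of the nucleus. Unphosphorylated TAZ enters the nucleus and reaches DNA through TEAD proteins. In fibroblasts of the heart, YAP and TAZ are known for responding to stiffness and for taking part in the switch to matrix-producing myofibroblasts.

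The samples were primary mouse cardiac fibroblasts from heart, with 6 libraries in a T set and an S set. Each set held 1 library for each of 3 treatments: NC, TGF-b (a cytokine that activates fibroblasts), and TGF-b with an siRNA. The study profiled TAZ and SRF, a transcription factor that binds CArG boxes, so T was read as TAZ and S as SRF, although the labels name no antibody. The labels give the siRNA as SiTAZ (T set) or SiSRF (S set). The text of the study instead describes siRNA against Piezo2, a mechanically gated ion channel, with scrambled siRNA as its control. What NC stands for is not spelled out, and the series' design text speaks of a Tet3 knockout by Cre that no sample label mentions. Neither the siRNA's effect nor the cell type can be checked in these libraries, because association of a factor with a gene is not expression. Regions lay near 5 of 6 fibroblast genes and 6 of 7 genes of other heart cells in the TGF-b against NC table of the T set, and near 2 of 6 and 5 of 7 in that of the S set. Mice of the study had a C57BL/6 J background, and the age, sex and number of the animals behind these libraries were not given in the sources used here.

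Depth was low, and it sets how much can be read from each region. Regions called in a library held a median of 7 to 10 reads in the T set and of 10 to 13 reads in the S set. No group had a replicate, so no test of treatment was made, and each difference is one between 2 libraries. Brackets give 95% counting intervals of the log2 ratio, taken from a Wilson interval on how the reads of a region split between both libraries. They cover counting error only and say nothing of the spread between cultures. More protein on the same DNA and more cells with that DNA occupied cannot be told apart in such bulk libraries. Values are the authors' normalized read densities, close to (reads + 1) per kb over a window of 2 kb and rescaled along a line. Read numbers were recovered from them. Centring a table on the median of all its regions adds 0.65 to each log2 ratio and interval for TGF-b over NC in the T set (S set, 0.20). For siRNA over TGF-b it takes 0.97 away in the T set and, for the S set, adds 0.21. Of the member intervals that excluded 0, 18 of 30 (T set, TGF-b over NC) and 11 of 21 (T set, siRNA over TGF-b) still did so on the same side after centring, and 8 of 8 and 6 of 6 in the S set. A further 2 and 14 T set intervals excluded 0 only after centring, as did 1 and 0 of the S set.

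In the T set, 63 of 170890 regions in the TGF-b against NC table belonged to 9 of the 10 genes (Mob1a had none). The table of siRNA with TGF-b against TGF-b held 51 of 180118 regions for 8 genes, without Mob1a and Mob1b. The S set was sparser. Its tables held 15 of 52723 regions for 6 genes (without Taok1, Sav1, Lats1 and Lats2) and 15 of 52579 for 7 genes (without Nf2, Sav1 and Lats2). Counted once each, there were 97 distinct T set regions and 24 distinct S set regions. Of these, 3 overlapped the other set, which is 3.09% of the T set regions and 12.5% of the S set regions, and all of them lay at Stk3 or Stk4. Over all distinct regions the shares were 4.71% of the T set and 17.3% of the S set. Most regions were intronic (54 of 63 and 41 of 51 in the T set, 12 of 15 and 11 of 15 in the S set). Over all annotated regions, 74.6% and 75.2% were intronic in the T set and 72.2% and 67.6% in the S set. Midpoints of member regions fell over 10 kb from a transcription start site (TSS) in 33 of 63, 22 of 51, 7 of 15 and 7 of 15 cases.

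Regions at start sites come first, because several of them can be followed through all 3 libraries. Upstream sequence is shown for the 4 genes that, with Stk3, had a T set start-site region with reads recovered for all 3 libraries. Such a region need not be called in each library. Its reads come from a 2 kb window that reaches beyond the bases shown. Stk3 is named only. The 250 bases before the start are given 5′ to 3′ on the gene's strand, from RefSeq on GRCm38.p6, and capitals mark matches to the motifs described after them.
Sav1 (chr12:69987003-69987252, minus strand): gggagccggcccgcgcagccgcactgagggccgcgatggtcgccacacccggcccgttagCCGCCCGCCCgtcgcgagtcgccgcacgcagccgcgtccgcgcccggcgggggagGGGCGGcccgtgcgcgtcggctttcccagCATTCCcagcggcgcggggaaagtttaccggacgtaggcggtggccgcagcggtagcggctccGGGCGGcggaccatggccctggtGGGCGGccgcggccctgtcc
Nf2 (chr11:4849545-4849794, minus strand): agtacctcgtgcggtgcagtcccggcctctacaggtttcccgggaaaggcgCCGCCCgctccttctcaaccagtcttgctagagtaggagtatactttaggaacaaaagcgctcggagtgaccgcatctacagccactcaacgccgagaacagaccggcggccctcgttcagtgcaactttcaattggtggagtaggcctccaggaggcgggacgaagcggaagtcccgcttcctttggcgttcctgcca
Stk4 (chr2:164073888-164074137, plus strand): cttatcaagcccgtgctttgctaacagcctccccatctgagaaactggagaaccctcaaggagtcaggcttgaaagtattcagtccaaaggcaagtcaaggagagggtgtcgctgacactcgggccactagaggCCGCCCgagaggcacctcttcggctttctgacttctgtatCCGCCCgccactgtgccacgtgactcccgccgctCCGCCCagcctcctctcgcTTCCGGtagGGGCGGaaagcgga
Taok1 (chr11:77607816-77608065, minus strand): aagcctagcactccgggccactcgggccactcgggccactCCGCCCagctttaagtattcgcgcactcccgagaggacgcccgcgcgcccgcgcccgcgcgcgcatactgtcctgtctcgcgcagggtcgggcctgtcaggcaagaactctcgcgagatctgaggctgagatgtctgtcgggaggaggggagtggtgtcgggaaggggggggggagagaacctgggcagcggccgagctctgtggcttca

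Motif letters were searched on both strands in these 250 bases. The TEAD core was taken as GGAATG. The AP-1 site was taken as TGACTCA and the ETS core as CCGGAA. The GC box was taken as GGGCGG, and CArG boxes were searched too. The last letters of the ETS core are the first of the TEAD core, so a stretch can match both. RefSeq entries matched 9 of the 10 genes by symbol, with 11 promoters. Sav1 held 1 TEAD core, whose first base lies 106 bases upstream of the start, and 5 GC boxes, the most of any member promoter. Mob1a held 1 TEAD core, 209 bases upstream. Among all 32851 RefSeq promoters, 12.6% held a TEAD core, 12% an ETS core, 32.7% a GC box, 4.46% an AP-1 site and 1.47% a CArG box. No member promoter held the AP-1 or CArG letters in this window. The Sav1 window was 79.2% G and C, Taok1 68.4%, Stk4 60.0% and Nf2 59.2%, against a median of 52.4% over all promoters. Such a match is a description of letters.

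Stk3, which encodes MST2, had the start-site region with the most reads of the 10 genes in either set. In the T set the region (chr15:35155875-35156241 in the files' coordinates, read as GRCm39) ran from 289 bases upstream to 77 bases downstream of the annotated start. The window held 27 reads in NC, 57 with TGF-b and 44 with TGF-b and siRNA. NC was the lowest library, and the order of the other two turns with the scaling. The log2 ratio of normalized density was 1.04 [0.41, 1.72] for TGF-b over NC and 0.12 [-0.45, 0.67] for siRNA with TGF-b over TGF-b. The second value was -0.37 without the authors' line and -0.85 after centring on the table's median, so its direction rests on the scaling.

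An overlapping Stk3 region of the S set (chr15:35155818-35156171) had 10 reads in NC, 35 under TGF-b and 42 with siRNA. The NC library was again the lowest, while the TGF-b and siRNA libraries stood close together. This S set region was called with TGF-b and with siRNA but not in NC. Its log2 ratios were 1.16 [0.26, 2.25] and 0.28 [-0.36, 0.92]. For TGF-b over NC, only the start-site regions of Stk3 and Stk4 overlapped between the sets. Of these, only that of Stk3 had a TGF-b density 2-fold or more above NC in both sets. A further Stk3 region 1643 bases upstream of the start had 11 reads in TGF-b and 22 with siRNA in the T set, a log2 ratio of 1.40 [0.44, 2.49], which was 0.43 [-0.53, 1.52] after centring. The window of this further region overlaps that of the start site, so they share reads. Its S set counterpart had 7 reads in NC and 9 under TGF-b, a log2 ratio of -0.26 [-1.59, 1.15].

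Stk4 encodes MST1, the close relative of MST2. Its start-site region in the T set (chr2:163915933-163916067, from 125 bases upstream to 9 downstream) held 24, 22 and 32 reads in NC, TGF-b and siRNA. The first pair differed by less than the counting error, with a log2 ratio of -0.08 [-0.91, 0.74]. The log2 ratio with siRNA was 0.99 [0.24, 1.79], and it was 0.02 after centring, since the median of all regions in that table was 0.97. The S set region (chr2:163915944-163916091) held 5, 11 and 17 reads, and its ratios on the log2 scale were 0.42 [-0.91, 2.02] and 0.66 [-0.36, 1.78]. Both S set counting intervals include 0. The opposite-strand gene Tomm34 starts 847 bases from Stk4 in GENCODE, so the 2 kb window takes in both starts.

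Sav1 encodes the adaptor that holds the MST kinases active, and it had regions in the T set only. Its start-site region (chr12:70033728-70033959, from 183 bases upstream to 48 downstream) held 13 reads in NC, 26 under TGF-b and 8 with siRNA. TGF-b was the highest library. This region was called with TGF-b and with siRNA but not in NC, so the order is not independent of the calls. The log2 ratio was 1.0 [0.11, 2.0] for TGF-b over NC and -1.12 [-2.35, -0.12] for siRNA over TGF-b, and both signs were kept without the authors' line (0.95 and -1.58) and after centring (1.66 and -2.09). The annotated start of the files' Sav1 transcript and the RefSeq start coincide on GRCm38, so the TEAD letters 106 bases upstream fall inside the span of this region. An exonic Sav1 region 1751 bases from a further start held 2, 11 and 14 reads, and its log2 ratios were 2.16 [0.62, 4.63] and 0.79 [-0.30, 1.92]. An intronic one 1291 bases downstream held 15 reads in TGF-b and 3 with siRNA, a log2 ratio of -1.54 [-3.56, -0.18]. Its window overlaps that of the start site, so they share reads.

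Nf2 encodes merlin, a membrane-linked scaffold that brings LATS kinases to the cell cortex. The Nf2 start-site region (chr11:4799598-4799786, from 250 to 62 bases upstream) held 13, 25 and 12 reads in NC, TGF-b and siRNA, and the TGF-b library was the highest. It was called in TGF-b only, so its listing rests on that library. Log2 ratios were 0.95 [0.05, 1.95] and -0.53 [-1.57, 0.38], and the second was -1.50 [-2.54, -0.59] after centring. In contrast, a region in intron 4, 828 bases from the start of a shorter transcript, held 24 reads in NC and 4 under TGF-b, a log2 ratio of -2.21 [-3.94, -1.01]. A region in intron 1 (-5993 bases) stayed near 1 level with 30, 25 and 24 reads, and 1 in intron 15 held 19, 21 and 7. Nearby in intron 1, a pair of overlapping windows at -3045 and -3757 bases had 2 and 1 reads in TGF-b and 15 each with siRNA, with log2 ratios of 2.87 [1.39, 5.33] and 3.45 [1.79, 6.92]. Nf2 had a single S set region, in intron 14, with 9 reads in each of NC and TGF-b.

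Taok1 encodes an upstream kinase that phosphorylates the MST kinases. Its start-site region (chr11:77498817-77498906, from 265 to 176 bases upstream) held 33 reads in NC, 9 under TGF-b and 13 with siRNA in the T set, so NC was the highest library. The region was called in NC and with siRNA but not in TGF-b, so the order is not independent of the calls. The log2 ratio was -1.70 [-2.85, -0.77] for TGF-b over NC and 0.95 [-0.20, 2.18] for siRNA over TGF-b, the latter -0.02 after centring. A region 631 bases into intron 1 had 37 and 14 reads in NC and TGF-b, a log2 ratio of -1.30 [-2.24, -0.49], or -0.65 [-1.59, 0.16] after centring. The windows of these regions overlap, so they share reads. The third Taok1 region, 4536 bases upstream of a start, had 8 reads in NC and none in TGF-b, at least 1.92-fold lower with 0 set to the floor of 3 reads per library. Taok1 had 1 S set region, in intron 1, with 0 reads in TGF-b and 7 with siRNA, at least 2.27-fold higher on the same floor.

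**Figure D1:**
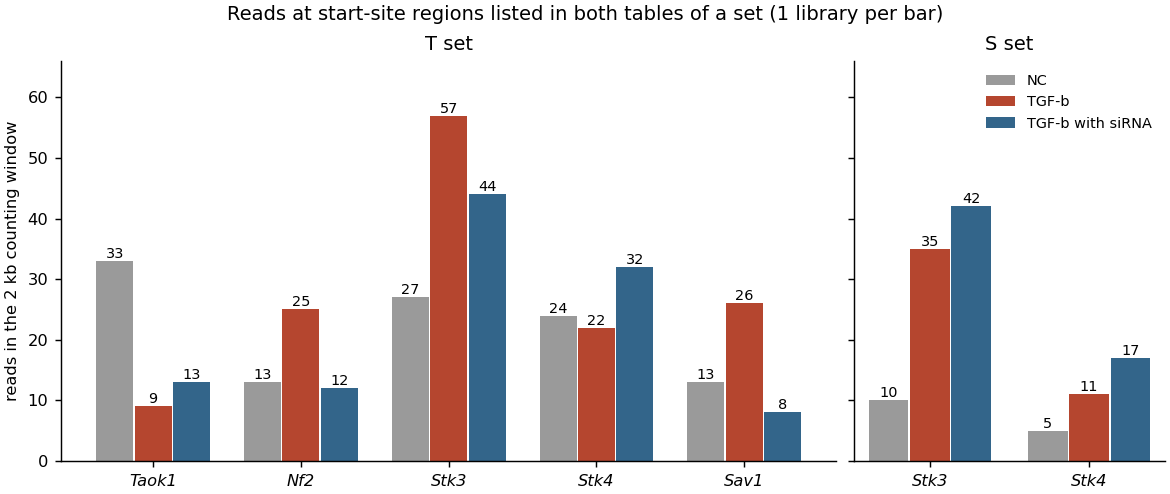
Reads recovered in the 2 kb window (y axis, not scaled to library size) at the start-site regions that both tables of a set list, with 1 bar per library. Stk3 was lowest in NC in both sets (27 and 10 reads), Sav1 and Nf2 were highest in TGF-b in the T set (26 and 25 reads), and Taok1 was highest in NC (33 reads). In the T set, Nf2 was called in TGF-b only, Sav1 was not called in NC and Taok1 not in TGF-b. In the S set, Stk3 was not called in NC. Regions are listed where they were called, so these orders are not independent of the calls.

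The LATS kinases and their co-activators had few regions at start sites. Lats1 had no region within 3000 bases of a TSS in either TGF-b against NC table. With siRNA, a Lats1 region 415 bases into its first intron held 25 reads in TGF-b and 10 with siRNA in the T set, a log2 ratio of -0.77 [-1.89, 0.18], which was -1.75 [-2.86, -0.79] after centring. An S set region at 993 bases held 10 and 8 reads, a log2 ratio of -0.19 [-1.52, 1.08]. The T set interval thus includes 0 only before centring. Pcmt1 starts 78 bases upstream of Lats1 on the opposite strand in GENCODE, and the T set window covers both starts.

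Lats2 had 9 T set regions in the TGF-b against NC table, of which 4 were at least 2-fold lower in TGF-b and none higher, a share close to that of the whole table (42.1% lower). The strongest by reads was in intron 1, at -3367 bases, with 34 reads in NC and 4 under TGF-b, a log2 ratio of -2.72 [-4.43, -1.56]. In the 3′ UTR a region held 14 reads in NC and 0 under TGF-b, at least 3.26-fold lower on the floor of 3 reads. Values differed between regions of the same intron. In intron 2, the region at -5374 bases held 15 and 3 reads (-1.86 [-3.87, -0.49], and -1.21 [-3.22, 0.16] after centring). The intron 2 region at -7295 bases held 17, 20 and 29 reads in NC, TGF-b and siRNA, and an intron 1 region at 4578 bases held 19, 19 and 5, with log2 ratios for siRNA over TGF-b of 0.99 [0.20, 1.82] and -1.28 [-2.84, -0.10]. The first of these was 0.02 after centring. Of the Lats2 regions, 5 of 9 and 3 of 4 in the tables of the T set lay in introns of a transcript of Gm49361, a gene model that overlaps Lats2, and could belong to either. The S set had no Lats2 region.

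Mob1a and Mob1b encode the co-activators of the LATS kinases. Mob1a appeared in the S set only. A region at its start (-34 bases) held 10 reads in TGF-b and 10 with siRNA, and its window also covers the start of Mthfd2, 108 bases away on the opposite strand. A Mob1a region in intron 2 held 0, 7 and 3 reads in NC, TGF-b and siRNA, at least 1.30-fold higher in TGF-b on the floor of 3 reads. Mob1b held 11 and 25 reads in NC and TGF-b 544 bases from its start in the S set, a log2 ratio of 0.56 [-0.37, 1.63]. A region in its intron 1, 21189 bases from the start, held 2, 11 and 1 reads, with log2 ratios of 1.40 [-0.15, 3.87] and -2.44 [-5.90, -0.72]. This region and the Mob1a region in intron 2 were called in TGF-b only, which favours a high TGF-b value. Mob1b had 1 T set region, with 11 reads in NC and 3 under TGF-b, a log2 ratio of -1.43 [-3.46, 0.01].

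**Figure D2:**
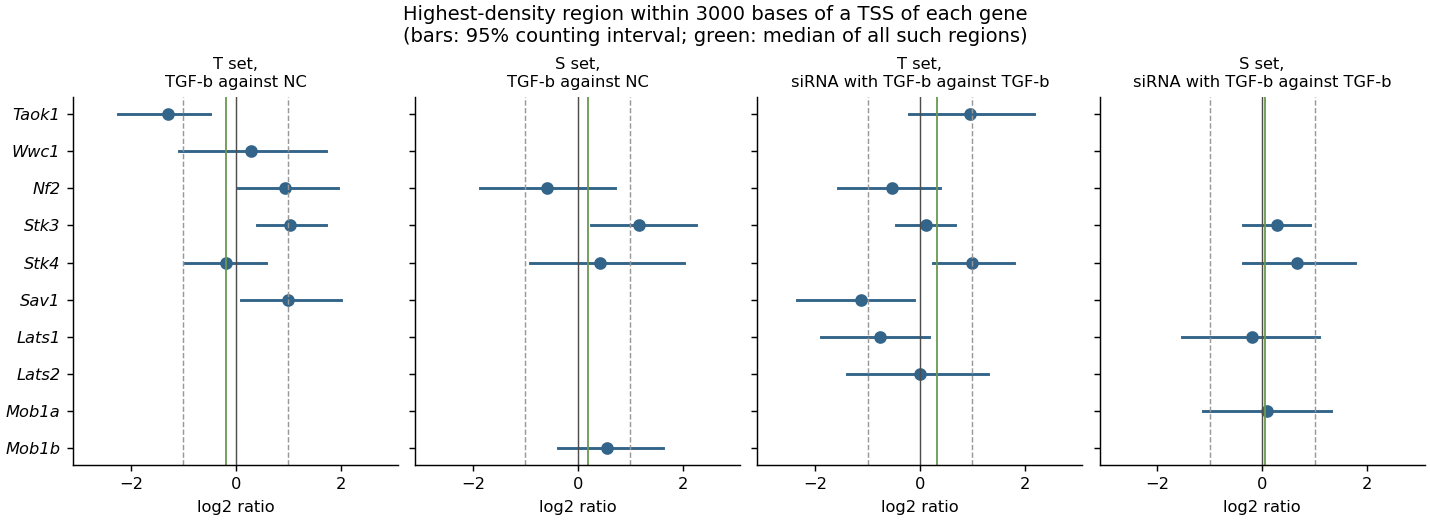
Log2 ratio (x axis) at the region of highest mean density within 3000 bases of a TSS for each gene, with 95% counting intervals as bars. The green line is the median of all regions within that distance, and dashed lines mark 2-fold. T set intervals of Nf2, Stk3 and Sav1 lie above 0 for TGF-b over NC and the Taok1 interval below it. Between those libraries, Nf2 and Sav1 were called in TGF-b only, Taok1 in NC only and Stk3 in both. Their sides are thus not independent of the calls. In the S set table of siRNA over TGF-b all 4 intervals include 0.

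Most member regions lay in introns. Wwc1, which encodes KIBRA, had 16 T set regions in the TGF-b against NC table, 15 of them over 10 kb from a TSS. Calls in NC only made up 15 of them (68.9% of all regions). Of the 16, 9 were at least 2-fold lower in TGF-b and none was higher (42.1% and 17.3% over all regions), and after centring 5 were lower and 1 higher. The steepest with many reads lay side by side in intron 1, at 59144 and 58953 bases from the start, with 24 and 21 reads in NC and 2 reads each in TGF-b. Their windows overlap, and their log2 ratios were -2.93 [-5.39, -1.52] and -2.74 [-5.20, -1.31]. The Wwc1 region nearest the start (1775 bases) held 7 and 8 reads.

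The S set had Wwc1 regions that were lower in TGF-b at other positions. For TGF-b over NC, all 4 were called in NC only (50.9% of all regions), which favours lower TGF-b values. Of 4 regions, 3 were at least 2-fold lower (26.7% of all regions), among them 1 in intron 2 with 20 reads in NC and 5 under TGF-b (-2.38 [-3.94, -1.21]) and 1 in intron 1 with 16 and 4 (-2.35 [-4.09, -1.07]). Both windows overlap and share reads. With siRNA, 4 of 11 T set Wwc1 regions were at least 2-fold higher than in TGF-b and none was lower, where 49.7% of all regions were higher. After centring, 4 were higher and 3 lower. A T set region 36574 bases upstream of the start held 2 and 14 reads (2.77 [1.28, 5.24]), and an S set region at -36819 bases held 5 and 14 (1.43 [0.18, 3.01]). Both of these lie in an intron of Tenm2, the neighbouring gene, so the assignment to Wwc1 rests on distance alone. Counting exons as well as introns, 2 of 16 and 3 of 11 T set Wwc1 regions lie in Tenm2, the one just given included.

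Stk3 had the most regions of any member (18 and 14 in the T set tables), and they did not share one direction. In TGF-b against NC, 4 of 18 were at least 2-fold higher and 6 at least 2-fold lower, against 17.3% and 42.1% of all regions, and after centring 5 were higher and 5 lower. A region in intron 8, 2138 bases upstream of a start, held 39 reads in NC and 7 under TGF-b (-2.26 [-3.54, -1.28]), whereas another in the same intron held 19, 18 and 10 reads in NC, TGF-b and siRNA. A region in intron 10 held 1, 14 and 5 reads, with a log2 ratio of 3.08 [1.41, 6.55] for TGF-b over NC. Some 1.5 to 2 kb away in that intron, overlapping windows held 5 and 4 reads in TGF-b and 26 each with siRNA (2.63 [1.51, 4.17] and 2.89 [1.71, 4.62]). Their windows also overlap in part that of the region with 1, 14 and 5 reads. Intron 10 also held an S set Stk3 region with 2, 15 and 0 reads in NC, TGF-b and siRNA. It was at least 3.58-fold lower with siRNA on the floor of 3 reads. Both this region and the T set one with 1, 14 and 5 reads were called in TGF-b only, which favours a high TGF-b value.

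Stk4 also had intronic regions. In intron 1 of the T set, 665 bases from the start, 28 reads in NC and 24 under TGF-b (-0.19 [-0.97, 0.58]) lay in a window that overlaps that of the start site. A T set region in intron 1, 3106 bases from the start, held 35 reads in NC, 13 under TGF-b and 38 with siRNA, so TGF-b was the lowest library. Its log2 ratios were -1.32 [-2.29, -0.48] and 1.95 [1.12, 2.91]. After centring they were -0.67 [-1.64, 0.17] and 0.98 [0.15, 1.94], so the first interval then included 0. In intron 9 of the S set, a Stk4 region held 10 reads in NC and 4 under TGF-b (-1.73 [-3.50, -0.32]). With siRNA, 5 of 8 T set Stk4 regions were at least 2-fold higher and none lower, against 49.7% and 16.2% of all regions, and after centring 1 was higher.

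**Figure D3:**
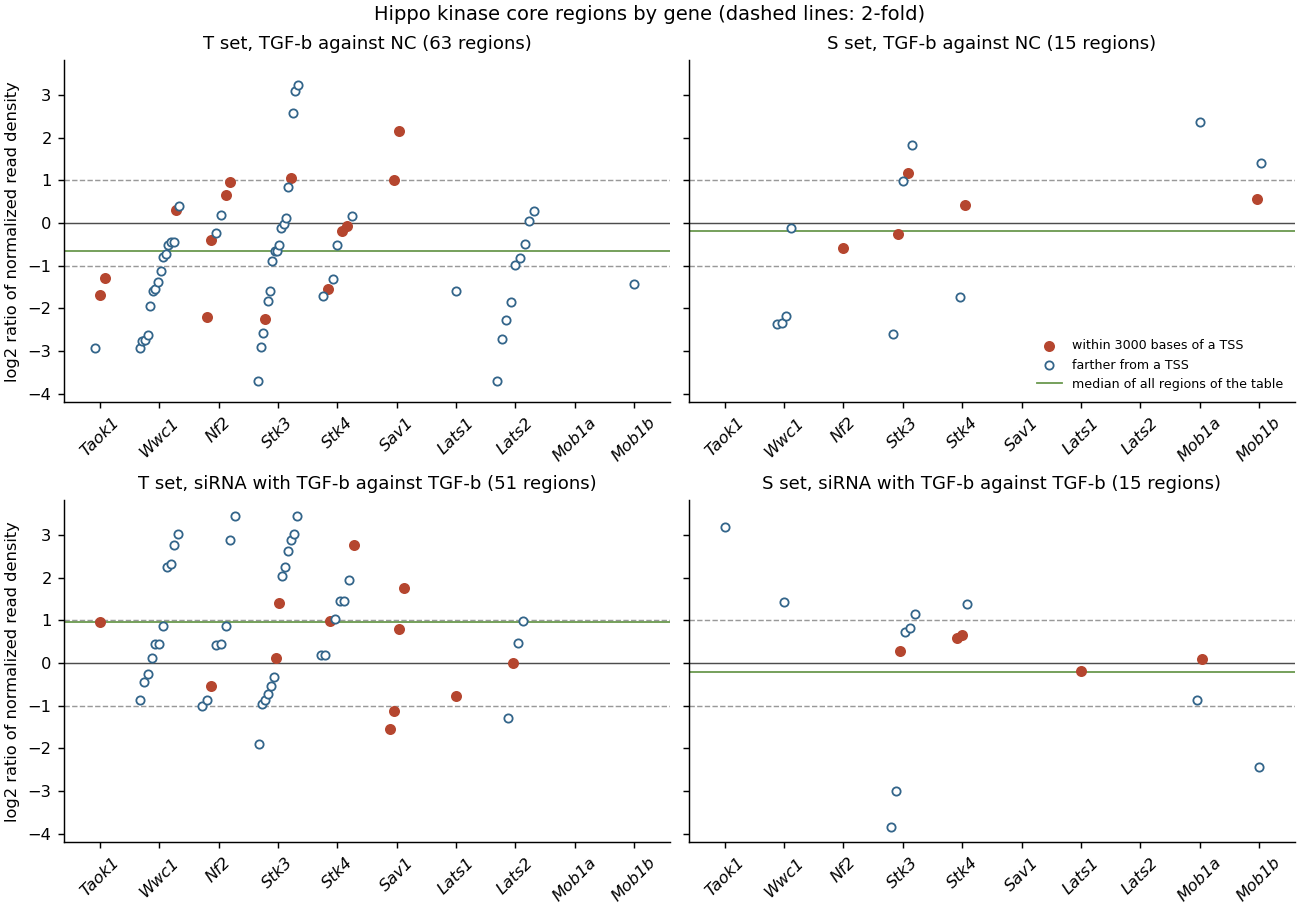
Log2 ratio of normalized read density (y axis) for each of the 144 regions by gene, with filled points within 3000 bases of a TSS and open points farther away. The green line is the median of all regions of that table. For TGF-b over NC, 28 of 63 T set regions lie at or below the lower 2-fold line, while Sav1 lies at or above the upper one with both of its regions. Both Sav1 regions were called in TGF-b and not in NC.

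Counted over all members, TGF-b over NC in the T set gave 6 regions at least 2-fold higher (9.52%, against 17.3% of all regions) and 28 at least 2-fold lower (44.4%, against 42.1%). The median log2 ratio was -0.80, and -0.60 with a floor of 3 reads per library, against -0.65 over all regions. Shares of lower regions were thus near those of the table as a whole. After centring on the table's median, 10 were higher and 18 lower. Among the 14 regions within 3000 bases of a TSS, 3 were higher (19.2% of all such regions) and 5 lower (29.2%), with a median of -0.13 against -0.18. Direction went with the library in which a region was called. The 47 regions called in NC only had a median of -1.43 with none higher, the 10 called in TGF-b only a median of 0.98 with none lower, and the 6 called in both a median of 0.02. The whole table behaved alike, with medians of -1.27, 1.41 and 0.0 and shares of 68.9%, 25.7% and 5.42%, against 74.6%, 15.9% and 9.52% for the members. The NC library had 127036 called regions and the TGF-b library 53121, and the part of this difference in the counts was not tested.

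In the S set, 4 of 15 regions were at least 2-fold above NC with TGF-b (26.7%, against 17.4% of all regions) and 5 at least 2-fold lower (33.3%, against 26.7%). The median was -0.12 against -0.20. Without the authors' line, 7 were higher and 5 lower and the median was 0.46, so the sign of the S set median rests on that step. Of the 5 regions within 3000 bases of a TSS, 1 was higher (22.0% of all such regions) and none lower (16.7%). A library with 3 or fewer reads stood behind 27 of 63 T set and 6 of 15 S set ratios.

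For siRNA with TGF-b over TGF-b, 19 of 51 T set regions were at least 2-fold higher (37.3%, against 49.7% of all regions) and 4 at least 2-fold lower (7.84%, against 16.2%). The median was 0.47, and 0.97 over all regions. The split turned with scaling, to 13 higher and 16 lower after centring and 17 and 13 without the authors' line. Both steps act on every region of the table. Counts after them are given for member regions only, here and for the other comparisons. Within 3000 bases of a TSS, 3 of 12 were higher (34.5% of all such regions) and 2 lower (19.6%), and the 2 lower ones were both at Sav1, with windows that overlap and share reads. In the S set, 4 of 15 were higher (26.7%, against 15.1%) and 3 lower (20.0%, against 27.8%), and none of the 5 within 3000 bases of a TSS was past 2-fold in either direction (14.5% and 16.0% of all such regions). Both comparisons of a set share its TGF-b library, so a low or high read number there enters both ratios.

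**Figure D4:**
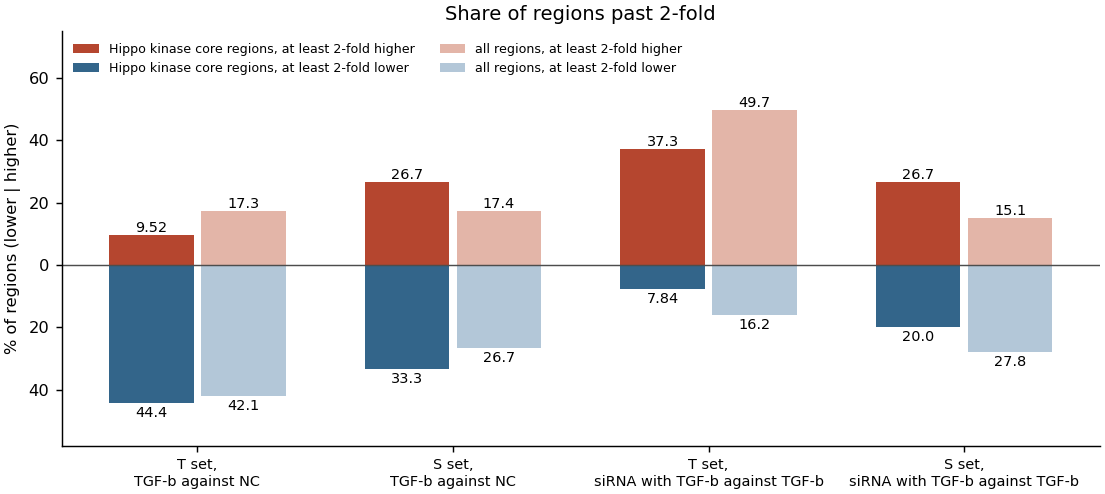
Percentage of regions (y axis) at least 2-fold higher (above 0) or lower (below 0) for the Hippo kinase core genes, in dark colours, and for all regions of the table, in light colours. The share of member regions higher in the T set was below that of all regions in both comparisons (9.52% against 17.3% and 37.3% against 49.7%), and in the S set it was above (26.7% against 17.4% and 26.7% against 15.1%, 4 of 15 regions each).

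The rest of the pathway was taken as 40 further genes, comprising other upstream kinases, scaffolds and adhesion regulators, NDR kinases, inhibitors of LATS and MST, effectors and angiomotins. In the T set all 40 had regions in the TGF-b against NC table, where 61 of 355 were at least 2-fold higher (17.2%, against 17.3%) and 131 lower (36.9%, against 42.1%), with a median of -0.40. Within 3000 bases of a TSS, 16 of their 96 regions were higher and 32 lower (19.2% and 29.2% of all such regions), among them 3 and 13 of 32 at other upstream kinases, 3 and 6 of 19 at scaffolds and adhesion regulators, and 2 and 7 of 19 at inhibitors of LATS and MST. The angiomotins, which bind and hold back YAP and TAZ, had 6 regions within 3000 bases of a TSS, of which 4 were higher and none lower. With siRNA they had 9 such regions, 3 higher and 1 lower (34.5% and 19.6% of all such regions). At the highest of these for each gene, Amot held 1 read (NC) and 44 reads (TGF-b), Amotl1 9 and 22, and Amotl2 64 and 84, the last with a log2 ratio of 0.32 [-0.14, 0.79]. Effectors had 13 regions within that distance, 3 of them higher and 3 lower. The effector Tead1, a DNA-binding partner of TAZ, held 24, 81 and 31 reads in NC, TGF-b and siRNA at its start, with log2 ratios of 1.69 [1.08, 2.39] and -0.87 [-1.50, -0.31]. Wwtr1, which encodes TAZ itself, held 41, 65 and 25 reads. Tead3 held 25, 25 and 6 reads, and a Yap1 region held 10 in NC and 8 under TGF-b. The angiomotins and these effectors were picked after their values were seen. Of the 40 genes, 28 had an S set region in that comparison, with 12 of 66 higher (18.2%, against 17.4% of all regions) and 18 lower (27.3%, against 26.7%). With siRNA, 127 of 306 T set regions of these genes were higher (41.5%, against 49.7%) and 54 lower (17.6%, against 16.2%). Of 64 S set regions, 12 were higher (18.8%, against 15.1%) and 13 lower (20.3%, against 27.8%).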

How the data were processed

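The 6 CUT&Tag libraries (1 per group) were compared in 4 deposited tables, 2 per set. The study's methods name GRCm39, Bowtie2 and a peak caller given as Masc2, whereas the submitters' processing notes list mm10 and BWA 0.7.12. Transcript coordinates in the tables matched GENCODE M21 (GRCm38) for 1.90% to 2.10% of transcripts, so coordinates were read as GRCm39 and printed as in the files. Whether starts count from 0 or 1 is not given in the sources used here. The value the authors deposited, a normalized read density, is a signal per kb rescaled along a line in mean log2 density so that regions called in both libraries centre on 0. It is not scaled to library size, and total depth was not used here. The deposited fold change and p-value columns of the authors' own comparison were not used.

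Density before rescaling was taken as (reads + 1) × 0.5, and the line was found from the condition that the recovered reads be whole, which held within 0.1 read in 99.98% to 99.99% of regions and in all member regions, and the procedure was tested on simulated data. Ratios are log2 of the later over the earlier library, with a threshold of 2-fold. Named start-site regions were those of highest mean density within 3000 bases of a TSS, together with the 10 densest member regions per table, those past 4-fold with at least 15 reads, and those found in both sets. Distances run from a region's midpoint to the nearest TSS in the tables. Regions of a set's 2 tables were joined by an overlap of 1 base, and the 17 T set and 6 S set joined regions had equal coordinates and TGF-b reads. Members and lists were chosen with earlier results of these data known. RefSeq promoters (GRCm38.p6) were matched by symbol. Python 3.11.15, pandas 2.3.3, NumPy 2.4.6 and SciPy 1.17.1 were used. Alternatives were other fold thresholds, no line, centring, a filter on density, a read floor, distance limits and, added after seeing the data, 1 region per run of overlapping windows.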

Additional observations from a re-analysis of the deposited data

Results flagged for a closer look

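The Stk4 start-site region was found in both sets and its ratio of TGF-b over NC had opposite signs in them, with a log2 ratio of -0.08 in the T set (24 and 22 reads) and 0.42 in the S set (5 and 11 reads). With 1 library per treatment this difference was not tested, and both counting intervals include 0. After centring each table on its median the values were 0.57 and 0.61, so the opposite signs were not kept.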

How the results depend on the processing

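No paired analysis was possible because each group held 1 library. A count of regions higher in TGF-b and lower with siRNA was planned and not run, since both ratios share the TGF-b library. Without the authors' line the median of all regions moved by -0.13 and -0.46 in the T set and by 0.56 and -0.08 in the S set (TGF-b over NC, then siRNA over TGF-b).

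T set, TGF-b over NC (6 higher, 28 lower, median -0.80). Centring gave 10 higher, 18 lower, median -0.15, and a median of 1.28 in place of 0.63 over the named start-site regions. At 4-fold, 13 were lower. Denser regions gave 3 and 14, regions within 3000 bases 3 and 5 (median -0.13), and within 1000 bases 2 and 3 (median -0.13).

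S set, TGF-b over NC (4 higher, 5 lower, median -0.12). The median was reversed without the line (0.46, 7 higher), after centring (0.08), within 3000 bases (0.42), within 1000 bases (0.56) and with 1 region per run of windows (0.42). There was 1 higher at 4-fold, 2 higher with the read floor, 1 higher and 2 lower among denser regions, and 1 higher and 0 lower within 3000 and within 1000 bases.

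T set, siRNA over TGF-b (19 higher, 4 lower, median 0.47). The median was reversed by centring (-0.50, 16 lower) and fell to 0.00 without the line (13 lower). At 1.5-fold 11 were lower and at 4-fold 0. Denser regions gave 10 higher, those within 3000 bases 3 and 2, and within 1000 bases 1 and 1 (median 0.06).

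S set, siRNA over TGF-b (4 higher, 3 lower). There were 7 higher at 1.5-fold and 1 at 4-fold. Denser regions gave 1 higher and 0 lower, and both distance limits 0 and 0. The cause was not tested, except that density and distance limits leave fewer regions (5 to 35 and 3 to 14). No named start-site region whose counting interval excluded 0 changed sign without the line, after centring or with the read floor.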

Other observations

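Among the member regions called in a single library, some held the higher normalized density in the other library. In the T set table of siRNA with TGF-b against TGF-b these were 10 of 44 (22.7%, against 13.0% of all such regions), and among them were the Lats1 region in its first intron (25 reads in TGF-b, 10 with siRNA) and the Sav1 intronic region (15 and 3 reads), both called with siRNA only. In the other tables the member shares were below those of all regions, at 5 of 57 in the T set for TGF-b over NC (8.77% against 14.2%), and at 1 of 15 (6.67% against 14.5%) and 1 of 13 (7.69% against 16.2%) in the S set. The S set region of TGF-b against NC was at Mob1b, with 11 reads in NC and 25 under TGF-b though called in NC only. A call and the 2 kb density are therefore separate readings of a region, and these examples were chosen after their values were seen.

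Outside the 10 genes, Yap1 had 0 reads in TGF-b and 30 with siRNA at a region 186 bases from a TSS in the T set. Strn3, which encodes a subunit of the STRIPAK phosphatase complex that acts on the MST kinases, held 42, 109 and 43 reads in NC, TGF-b and siRNA at a T set start-site region, with log2 ratios of 1.30 [0.81, 1.83] and -0.83 [-1.36, -0.35]. In the S set, Frmd6, a Hippo regulator of the membrane cortex, held 3, 28 and 12 reads at its start, with log2 ratios of 2.28 [1.02, 4.28] and -1.09 [-2.12, -0.20]. These genes were picked after their values were seen.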
